A study of Mus musculus with 6 samples.

Results

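The proteasome genes of cultured mouse calvarial preosteoblasts were examined in the libraries of a Nell2 deletion experiment. Rows of the deposited expression table were taken where the gene symbol began with Psma to Psmg followed by a digit, which gave 50 of 17001 rows. They comprised 8 alpha and 8 beta subunits of the core particle, 3 immunoproteasome subunits, 6 ATPases and 11 non-ATPase subunits of the regulatory particle, 7 assembly chaperones, and 6 activator and inhibitor genes. The remaining row, Psmc3ip, matched by name only, since it encodes a partner of the meiotic recombination machinery and not a proteasome subunit.

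The proteasome is the large protease that degrades proteins tagged with ubiquitin. Its barrel-shaped core is built of alpha subunits, which form the outer rings and the gate, and beta subunits, which form the inner rings and carry the catalytic sites. A regulatory particle docks on the core to form the 26S proteasome, in which ATPases unfold the substrate and non-ATPase subunits recognise ubiquitin and remove it. Interferon and cells of the immune system exchange the catalytic beta subunits for the immunoproteasome forms, which favour the production of peptides for antigen presentation. In osteoblasts, the proteasome is known for the turnover of transcription factors such as Runx2.

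The cultures were started from calvarial bone of mice aged 3 days and kept in α-MEM with serum. There were 3 control libraries, from Nell2 fx/fx mice, and 3 cKO libraries, from Col1-cre; Nell2 fx/fx mice, so that both groups carried the floxed alleles and only the cKO mice carried Cre, driven by a fragment of the mouse Col1a1 promoter. The labels do not say whether the libraries of a group came from separate animals or cultures. Y-linked genes, given below, were on in only some libraries of each group. Not all libraries of a group therefore came from the same animals. The p-values measure only the spread between these samples, part of which may be technical. Values are FPKM, in which fragment counts are scaled to transcript length and to library size, so levels of different genes can be set side by side per length.

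Nell2 had an FPKM of 3.17, 2.59 and 1.88 in control libraries 1, 2 and 3 and of 5.64, 1.61 and 5.74 in cKO libraries 1, 2 and 3, a mean of 2.55 against 4.33 FPKM. The Nell2 level per gene therefore did not show the deletion, and directions below follow the labels. The paper reports that the deletion was checked in calvarial preosteoblasts by qRT-PCR and western blotting. FPKM is given here per gene, so the deleted part of the transcript was not read apart. The preosteoblast markers Col1a1 and Col1a2 were at 7484 FPKM or more in each library, and of the 8 preosteoblast markers in the list, 4 (Ibsp, Sp7, Alpl and Bglap) were lower in every cKO library than in every control library, where 11.8% of all tested rows were. The groups overlapped for the other 4, among them Runx2 (log2 fold change -0.21) and Spp1 (0.12). Epithelial markers (Krt8, Krt18, Epcam, Cdh1) summed to 0.46 to 13.2 FPKM in control and 15.9 to 42.5 FPKM in cKO libraries. Y-linked genes were on in control library 3 and cKO libraries 1 and 3 only. Krt8 and Krt18 passed the filter described below and were higher at an unadjusted p under 0.05, against 5.37% of all tested rows. So were 2 of 4 cartilage markers (summed level 86.5 to 159 FPKM in control and 140 to 159.6 FPKM in cKO libraries). Of 4 muscle markers and 1 endothelial marker, 0 were. Epcam had 0, 0.15 and 0.47 FPKM in control and 1.37, 1.58 and 1.21 FPKM in cKO libraries. It passed the filter only through the cKO libraries, so its call is not counted here. The part of other cells in the proteasome results was not tested. In bulk RNA, fewer cells of a type and less RNA per cell cannot be told apart.

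Groups were compared as log2(FPKM + 1) with limma over 11590 rows, those in which 3 or more libraries reached 1 FPKM, and 47 of the 50 proteasome genes passed this filter. Psma8, the alpha subunit of the testis, was listed at 0.75 to 1.21 FPKM and was not tested. The thymus subunit Psmb11 was listed at 0 in 5 libraries and at 0.01 in cKO library 2. Psme2b, an intronless copy of Psme2 whose reads may not be separable from those of Psme2, was at 0.33 FPKM or less. Psmc3ip passed, at 10.9, 13.5 and 16.6 FPKM in control and 9.68, 16.1 and 9.20 FPKM in cKO libraries, with groups that overlapped, and is counted among the 47.

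Among the Psm-named genes, the core classes had the highest class medians (the plot of levels by gene), though single genes of other classes, such as Psmc3, Psme2 and Psmd8, lay above the lowest core subunit. Beta subunits had mean levels from 139 FPKM (Psmb6) to 233 FPKM (Psmb4, a structural subunit), with a median of 165 FPKM, and alpha subunits from 72.5 FPKM (Psma1) to 181 FPKM (Psma7), with a median of 137 FPKM. ATPases had a median of 85.2 FPKM, with Psmc3 the highest at 149 FPKM and Psmc6 the lowest at 68.9 FPKM. Non-ATPase subunits ran from 43.5 FPKM (Psmd11) to 123 FPKM (Psmd8), with a median of 69.9 FPKM. Assembly chaperones were lower, from 13.2 FPKM (Psmd9) to 28.5 FPKM (Psmg1). The immunoproteasome genes lay between 12.1 and 39.1 FPKM. Among the activators, Psme2 had a mean of 143 FPKM, and the inhibitor Psmf1 had the lowest mean of the tested genes, 10.8 FPKM.

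**Figure D1:**
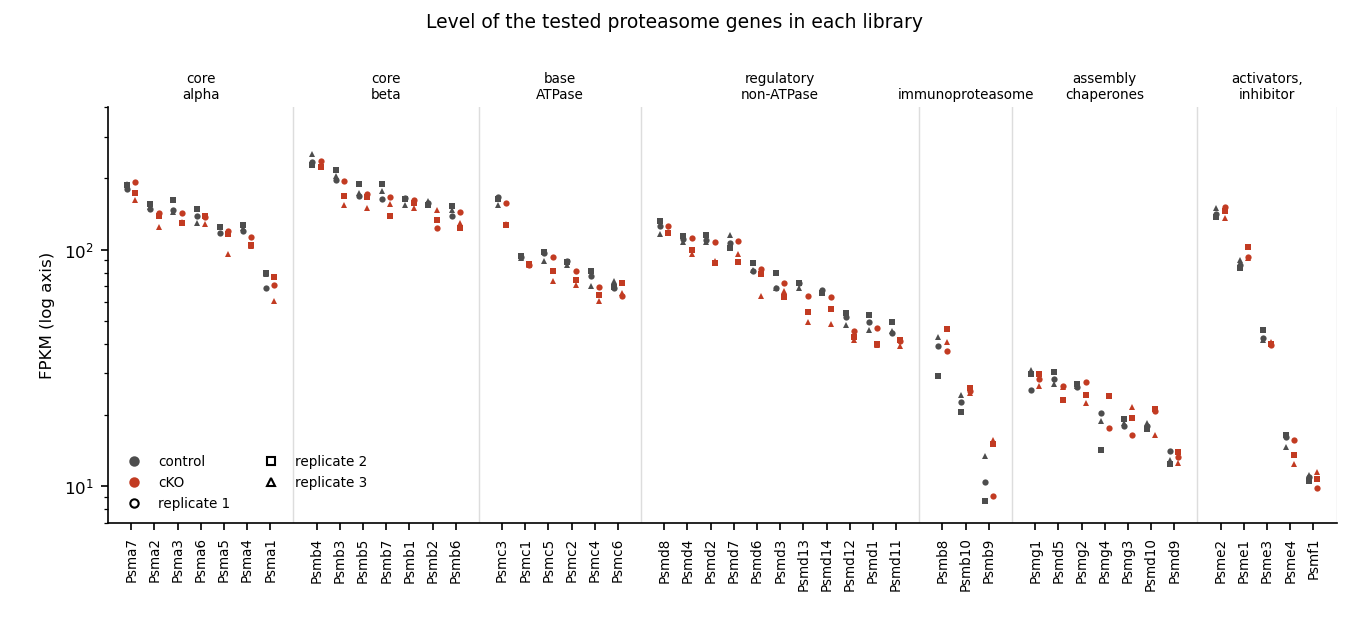
FPKM (log axis) of the tested proteasome genes without Psmc3ip, grouped by class and ordered within a class by mean level; each point is 1 library, grey for control and red for cKO, with the symbol giving the replicate number. The medians of the core classes are the highest (137 FPKM for alpha and 165 FPKM for beta subunits). The mean of Psmb8, the most abundant immunoproteasome gene, is 39.1 FPKM, below that of the least abundant 26S subunit, Psmd11 (43.5 FPKM).

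All 31 tested subunits of the constitutive 26S proteasome, 7 alpha, 7 beta, 6 ATPase and 11 non-ATPase, had a lower mean in the cKO than in the control libraries. The difference was small, with a median log2 fold change of -0.16 and a range from -0.35 to -0.041, which in mean FPKM was -2.82% for Psmb1 and -21.3% for Psmd13. Across all tested rows the median was -0.018, and 55.8% of rows had a lower and 44.2% a higher mean. After adjustment over all rows, none of the 47 proteasome genes passed an adjusted p of 0.05 in limma with Benjamini-Hochberg adjustment (0 of 47), against 0% of all rows. At an unadjusted p under 0.05 from the same fit, 12 of the 31 subunits were lower and 0 higher, where 7.76% of all rows were lower and 5.37% higher, 13.1% together. In 12 of the 31 every cKO library was below every control library, which held for 11.8% of all rows, and in 0 of them was the reverse true, which held for 6.51% of all rows.

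The 3 cKO libraries did not contribute equally. cKO library 3 was below all control libraries for 30 of the 31 subunits, cKO library 2 for 26, and cKO library 1 for 13. Over all tested rows, these shares were 39.4%, 32.8% and 29.5%. Relative to the mean of the control libraries, the median subunit was at -15.9% in cKO library 3, -13.8% in cKO library 2 and -5.05% in cKO library 1, while the medians of the control libraries lay between -1.97% and 3.58%. The summed level of the 31 subunits was 3622, 3795 and 3648 FPKM in control libraries 1, 2 and 3, and 3537, 3265 and 3143 FPKM in cKO libraries 1, 2 and 3. Sums of the cKO libraries thus lay below those of all controls, cKO library 1 by the least. The subunits made up 0.614% to 0.644% of the FPKM sum of a control library and 0.537% to 0.607% of that of a cKO library.

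**Figure D2:**
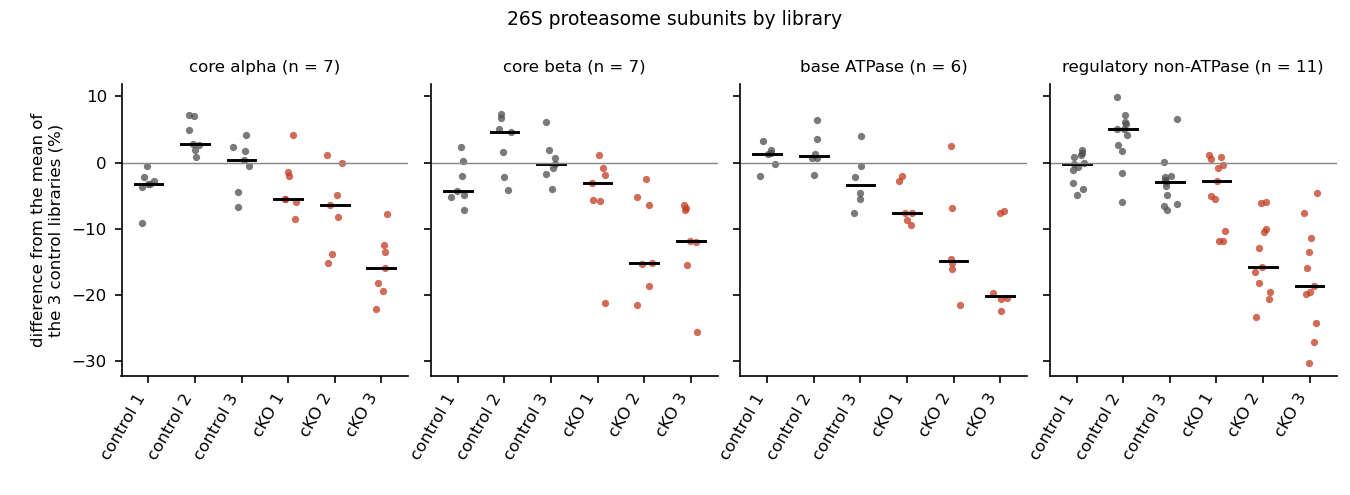
Difference of each 26S subunit from its mean over the 3 control libraries (%), by library and class; points are genes, black lines are medians, and grey and red mark control and cKO. In each class the medians of cKO libraries 2 and 3 lie below those of all control libraries, and over the 31 subunits the median of cKO library 1 is -5.05%.

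The number of subunits at an unadjusted p under 0.05 rested on single libraries. It was 7, 4 and 7 of the proteasome genes without control library 1, 2 or 3, and 20, 6 and 3 without cKO library 1, 2 or 3. Without cKO library 1, Psmd13 alone of the proteasome genes passed adjustment (limma, adjusted p = 0.0422), and 324 of all rows did. With the Y-linked genes as a covariate the number was 7. The direction was more stable than the number. All 31 subunits kept a lower mean in each of the 14 alternatives except without control library 2, where 30 did and Psma6 was at 0.0061 on the log2 scale. Rescaling the libraries gave other splits of lower to higher calls among the proteasome genes, 8 to 2 with quantile normalization and 9 to 2 with a common median, against 12 to 0. The share of all rows at an unadjusted p under 0.05 was not taken in these alternatives. Their counts are therefore not read as a result about the proteasome genes.

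Among the alpha subunits, 7 of 7 had a lower mean, with a median log2 fold change of -0.15. The least abundant tested alpha subunit, Psma1, had 68.7, 79.35 and 78.7 FPKM in control and 71.1, 76.5 and 60.9 FPKM in cKO libraries, with overlap. Psma4, the alpha3 subunit of the outer ring, had 119, 127 and 124 FPKM in the control libraries and 113, 105 and 104 FPKM in the cKO libraries. All cKO values were below all control values, a log2 fold change of -0.20 (SE 0.064, limma adjusted p = 0.312). Psma2 and Psma3 also had groups that did not overlap, at 151.8 ± 3.68 against 136 ± 10.1 FPKM and 151 ± 9.48 against 134 ± 7.07 FPKM (SD, n = 3). The smallest difference was that of Psma6, at 138, 149 and 130 FPKM in control and 137, 139 and 128 FPKM in cKO libraries. Its groups overlapped (log2 fold change -0.044, SE 0.074). The most abundant alpha subunit, Psma7, had 179.5, 187 and 189.7 FPKM in control and 193, 173 and 162 FPKM in cKO libraries, with cKO library 1 the highest of all 6.

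Among the constitutive beta subunits, 7 of 7 had a lower mean, with a median of -0.15. Psmb3, a structural subunit, had 198, 217 and 205 FPKM in control libraries and 195, 168 and 154 FPKM in cKO libraries. Its groups did not overlap, and cKO library 1 lay close to control library 1 (log2 fold change -0.27, SE 0.097, limma adjusted p = 0.338). Psmb2, also structural, had 157, 154 and 160.1 FPKM in control and 124, 133 and 146 FPKM in cKO libraries. Here cKO library 1 was the lowest (log2 fold change -0.23, SE 0.076, limma adjusted p = 0.321). The catalytic subunits had groups that overlapped. Psmb6, the caspase-like beta1 and the least abundant of the class, had 139, 153 and 147 FPKM in control and 144, 124 and 129 FPKM in cKO libraries. Psmb7, the trypsin-like beta2, had 164, 189 and 176 FPKM in control and 166, 138 and 155 FPKM in cKO libraries. Psmb5, the chymotrypsin-like beta5, had 168, 188.5 and 174 FPKM in control and 171, 167 and 149 FPKM in cKO libraries. In all 3, cKO library 1 lay within the control range (log2 fold changes -0.15, -0.20 and -0.12). Psmb4, the most abundant gene of all 50, had 233, 228 and 253 FPKM in control and 236, 223 and 223 FPKM in cKO libraries, and its groups overlapped. Psmb1 had the smallest difference of the class, with 165, 163.5 and 154 FPKM in control and 163, 157 and 149 FPKM in cKO libraries (log2 fold change -0.041, SE 0.064).

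The ATPases form the ring that pulls substrates into the core. All 6 had a lower mean, with a median of -0.21, and 3 had an unadjusted p under 0.05, where 7.76% of all rows were lower. Psmc2 had 89.4, 88.9 and 86.4 FPKM in control and 81.5, 74.1 and 70.9 FPKM in cKO libraries, without overlap (log2 fold change -0.22, SE 0.070, limma adjusted p = 0.312). Psmc4 had 77.1, 81.0 and 70.3 FPKM in control and 69.5, 64.6 and 60.5 FPKM in cKO libraries, also without overlap but with cKO library 1 next to control library 3. Psmc3, the most abundant ATPase, had 166, 163 and 154 FPKM in control and 157, 127 and 128 FPKM in cKO libraries. Its cKO library 1 lay within the control range, and the other cKO libraries were well below it. Psmc1 had the least spread, 92.9 ± 0.566 FPKM in control and 86.1 ± 0.413 FPKM in cKO libraries (SD, n = 3), and its groups did not overlap although its log2 fold change was only -0.11 (limma adjusted p = 0.427). Psmc6, the least abundant ATPase, overlapped, with 69.1, 69.2 and 73.4 FPKM in control and 63.9, 72.4 and 65.45 FPKM in cKO libraries.

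Of the 11 non-ATPase subunits, 11 had a lower mean, with a median of -0.19. At an unadjusted p under 0.05, 6 of them were lower, where 7.76% of all rows were. Psmd13, a subunit of the lid, had the largest difference of all proteasome genes. It had 72.4, 72.3 and 68.5 FPKM in control and 63.7, 54.5 and 49.6 FPKM in cKO libraries, with no overlap (log2 fold change -0.35, SE 0.097, limma adjusted p = 0.312). The gene (chr7:140881968-140898643, plus strand, GRCm38) overlaps an exon of Sirt3 on the other strand in GENCODE release M21. Exons of Psma4, Psmb7, Psmb9, Psmc3, Psmd1 and Psme1 likewise overlap a protein-coding gene on the other strand. Whether reads were counted by strand is not given in the sources used here, so reads of such pairs cannot be told apart. Psmd14, the enzyme of the lid that cuts ubiquitin chains from substrates, had 67.2, 65.3 and 66.4 FPKM in control and 62.9, 55.8 and 48.3 FPKM in cKO libraries. Its control values were within 2 FPKM of each other, and the cKO values were all lower and more spread (log2 fold change -0.25, SE 0.099, limma adjusted p = 0.356).

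Psmd12, a lid scaffold, had 51.7, 53.7 and 47.9 FPKM in control and 45.1, 42.7 and 41.6 FPKM in cKO libraries, without overlap (log2 fold change -0.24, SE 0.069, limma adjusted p = 0.312). Psmd11, a lid scaffold needed for assembly of the 26S particle, had 44.6, 49.3 and 45.5 FPKM in control and 40.9, 41.6 and 39.1 FPKM in cKO libraries, also without overlap. The large base scaffolds Psmd1 and Psmd2, which receive ubiquitin-like shuttles, each had cKO library 1 within the control range. Psmd1 had 49.5, 53.0 and 45.9 FPKM in control and 46.7, 39.8 and 39.7 FPKM in cKO libraries. Psmd2 had 109.6, 115 and 107.6 FPKM in control and 107.8, 88.0 and 89.2 FPKM in cKO libraries. Psmd4, a ubiquitin receptor, overlapped at 111 ± 2.93 against 102 ± 8.45 FPKM (SD, n = 3). Psmd8, the most abundant of the class, had its smallest difference, with 126, 132 and 117 FPKM in control and 126, 118 and 119 FPKM in cKO libraries.

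**Figure D3:**
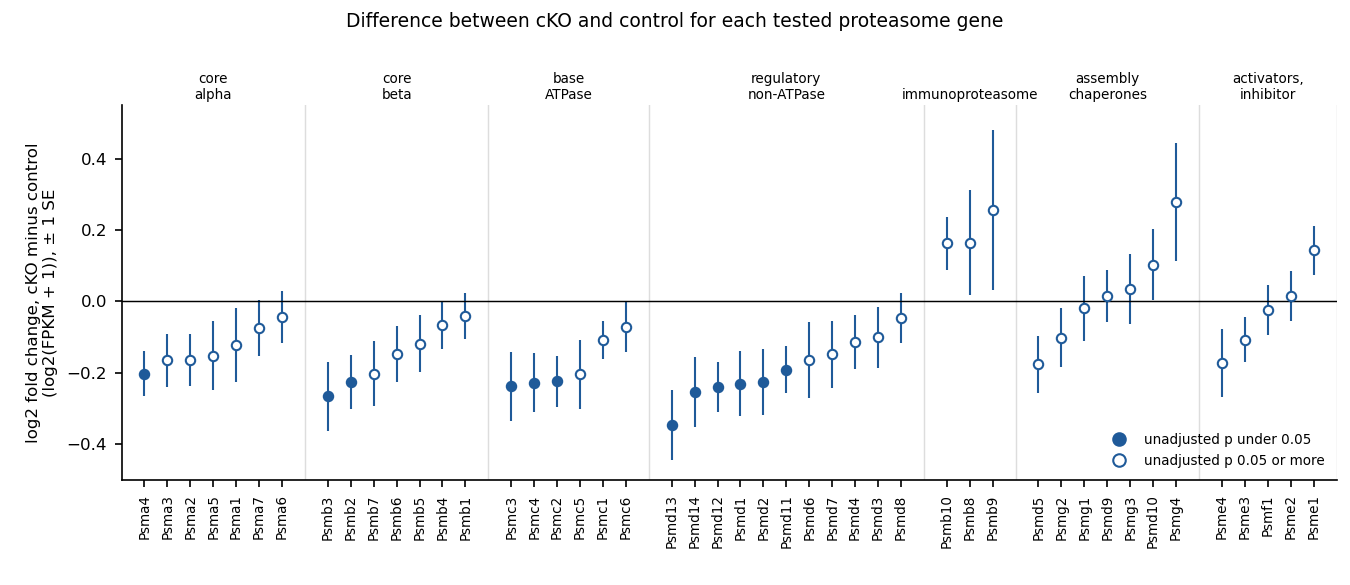
Log2 fold change, cKO minus control, on the log2(FPKM + 1) scale with 1 standard error from limma, for the tested proteasome genes by class, without Psmc3ip; filled points have an unadjusted p under 0.05. All 31 points of the 4 classes on the left lie below 0, all 3 immunoproteasome points lie above 0, and no gene passed adjustment in limma (0 of 47).

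The region upstream of the start was inspected because the 26S subunits differed in the same direction, and because the transcription factors NRF1 and NRF2 are known to act on proteasome genes through the antioxidant response element. RefSeq start sites on GRCm38.p6 were at hand for 42 of the 50 genes, among them 25 of the 31 tested 26S subunits. The core of this element, TGACNNNGC on either strand, was present in the 250 bases before the start of 4 of the 25, Psmb5, Psmb6, Psmc6 and Psmd12, or 16.0%, against 11.5% of all 27025 genes. The interferon-type motif, GAAA followed after 2 bases by GAAA, was present in 2 of the 25 (3.46% of all genes) and in 0 of the 3 immunoproteasome genes. CCAAT was present in 10 of the 25 (37.5% of all genes), GGGCGG in 14 (35.4%) and CGGAAG, the core of sites for ETS factors, in 15, or 60%, against 15.3% of all genes. CGGAAG was absent from the windows of the 3 immunoproteasome genes. The 27025 genes were not limited to those expressed in these cells, and shares among the tested rows were not taken. These letters were chosen after other runs had been counted, so the shares are a description only. A match of letters is not a binding site, and start sites can differ between annotations.

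Shown 5′ to 3′ on the strand of the gene are the catalytic subunits Psmb5 (chr14:54618023-54618245, minus strand) and Psmb6 (chr11:70525107-70525356, plus strand), the immunoproteasome subunit Psmb10 (chr8:105938445-105938642, minus strand), and 3 lid subunits that had an unadjusted p under 0.05, Psmd11 (chr11:80428365-80428614, plus strand), Psmd12 (chr11:107479278-107479483, plus strand) and Psmd14 (chr2:61711444-61711693, plus strand), from RefSeq on GRCm38.p6. Bases that lie in an annotated exon are left out. Capitals mark TGACNNNGC or CGGAAG on either strand. The element begins 47 bases before the start in Psmb5, 9 before it in Psmb6 and 247 before it in Psmd12, where it reads on the other strand. CGGAAG lies on the other strand, and so reads CTTCCG, in Psmd11, Psmd12 and Psmd14, beginning 11, 52 and 114 bases before the start. Psmb10 has no capitals.
Psmb5: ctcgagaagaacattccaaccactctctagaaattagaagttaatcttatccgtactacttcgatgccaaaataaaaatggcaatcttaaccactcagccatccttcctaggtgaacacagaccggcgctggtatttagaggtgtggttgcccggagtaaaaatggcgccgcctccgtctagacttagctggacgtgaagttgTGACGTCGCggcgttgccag
Psmb6: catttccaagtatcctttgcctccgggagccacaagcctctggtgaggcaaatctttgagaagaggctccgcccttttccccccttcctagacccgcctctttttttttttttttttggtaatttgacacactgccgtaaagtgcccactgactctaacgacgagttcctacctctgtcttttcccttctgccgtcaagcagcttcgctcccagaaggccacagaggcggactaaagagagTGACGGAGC
Psmb10: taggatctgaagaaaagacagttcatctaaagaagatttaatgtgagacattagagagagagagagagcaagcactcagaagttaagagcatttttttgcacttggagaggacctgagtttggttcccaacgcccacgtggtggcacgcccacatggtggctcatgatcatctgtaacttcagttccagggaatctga
Psmd11: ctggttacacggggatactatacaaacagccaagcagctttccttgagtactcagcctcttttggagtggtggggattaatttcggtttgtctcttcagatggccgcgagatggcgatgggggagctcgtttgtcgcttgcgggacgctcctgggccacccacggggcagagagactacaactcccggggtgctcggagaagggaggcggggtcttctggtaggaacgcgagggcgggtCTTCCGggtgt
Psmd12: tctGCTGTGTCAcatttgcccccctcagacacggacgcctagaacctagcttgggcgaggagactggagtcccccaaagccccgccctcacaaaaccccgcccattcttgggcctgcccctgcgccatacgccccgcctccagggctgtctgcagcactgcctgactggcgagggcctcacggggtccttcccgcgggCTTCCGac
Psmd14: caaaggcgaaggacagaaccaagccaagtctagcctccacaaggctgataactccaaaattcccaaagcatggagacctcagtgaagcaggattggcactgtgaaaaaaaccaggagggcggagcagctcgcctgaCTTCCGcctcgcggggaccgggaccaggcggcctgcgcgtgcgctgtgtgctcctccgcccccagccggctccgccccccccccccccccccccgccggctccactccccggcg

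The immunoproteasome genes did not share the direction of the other subunits. All 3 had a higher mean in the cKO libraries, with log2 fold changes between 0.16 and 0.26. An unadjusted p under 0.05 was found for 0 of the 3, against 13.1% of all rows, too few genes for a result. Psmb10, the inducible beta2i (chr8:105935735-105938444, minus strand, GRCm38), had 22.7, 20.6 and 24.2 FPKM in control and 25.2, 25.9 and 24.7 FPKM in cKO libraries. All cKO values were above all control values (log2 fold change 0.16, SE 0.075, limma adjusted p = 0.403). Psmb8, the inducible beta5i, had 39.1, 29.4 and 42.6 FPKM in control and 37.3, 46.0 and 40.5 FPKM in cKO libraries. Psmb9, the inducible beta1i, had 10.4, 8.65 and 13.5 FPKM in control and 9.13, 15.1 and 15.7 FPKM in cKO libraries. For both, control library 2 was the lowest of all 6, and the groups overlapped (limma adjusted p = 0.642 and 0.635).

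Each immunoproteasome subunit was then set against the constitutive subunit whose place it takes, as a ratio of FPKM within a library. Psmb10 was 13.9%, 10.9% and 13.8% of Psmb7 in control libraries and 15.2%, 18.7% and 15.9% in cKO libraries. The groups did not overlap, and the means were 12.8% ± 1.71 and 16.6% ± 1.87 (SD, n = 3), a log2 difference of 0.37 (two-sided exact permutation test, p = 0.1, the smallest that 3 against 3 libraries allow; 0.3 after Benjamini-Hochberg adjustment over the 3 ratios). Psmb9 was 7.49%, 5.65% and 9.15% of Psmb6 in control libraries and 6.36%, 12.2% and 12.2% in cKO libraries. The value of cKO library 1 lay within the control range (log2 difference 0.43, exact p = 0.3, adjusted 0.3). Psmb8 was 23.3%, 15.6% and 24.5% of Psmb5 in control libraries and 21.8%, 27.5% and 27.1% in cKO libraries, again with cKO library 1 among the controls (log2 difference 0.29, exact p = 0.3, adjusted 0.3). None of these ratios could reach an exact p of 0.05 in this design. Each ratio also carries the lower mean of its constitutive subunit (log2 fold changes -0.20 for Psmb7, -0.15 for Psmb6 and -0.12 for Psmb5). The ratios are therefore not separate from the gene values given above. The log2 differences of the ratios rested in part on control library 2, without which they were 0.26 for Psmb10, 0.24 for Psmb9 and 0.083 for Psmb8. The difference for Psmb9 was 0.74 without cKO library 1, 0.27 without cKO library 2 and 0.27 without cKO library 3.

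**Figure D4:**
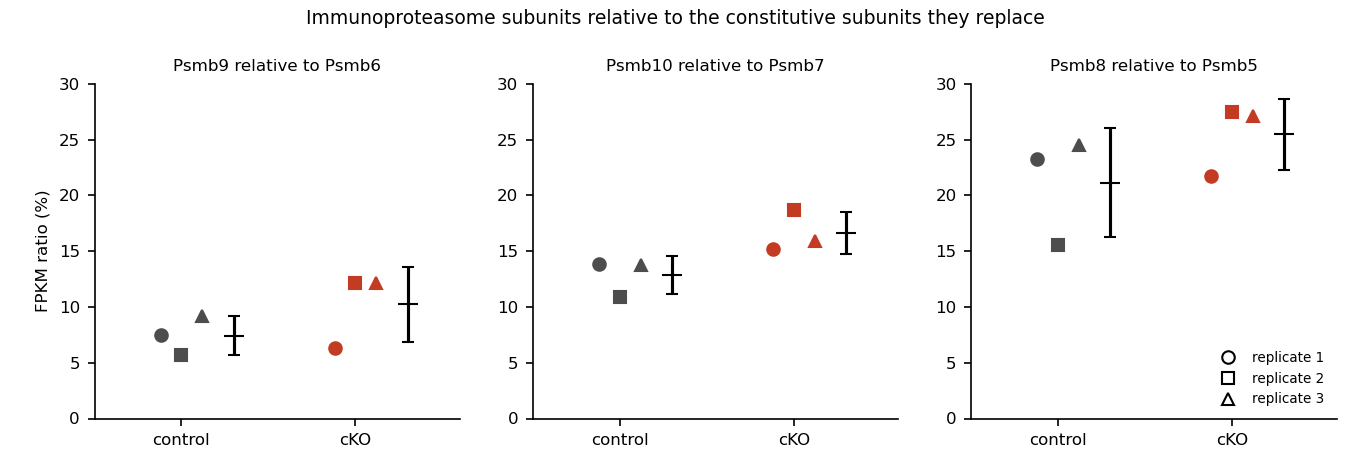
FPKM of each immunoproteasome subunit as a percentage of the FPKM of the constitutive subunit it replaces; points are libraries, symbols give the replicate number, and bars beside them are the mean ± SD of 3 libraries. For Psmb10 relative to Psmb7 the cKO libraries (15.2% to 18.7%) lie above the control libraries (10.9% to 13.9%), while for the other pairs cKO library 1 lies among the controls.

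Macrophages and other blood cells carry immunoproteasome, so their markers were read in the same libraries. The 8 blood cell markers read (Ptprc, Cd68, Csf1r, Adgre1, Lyz2, Tyrobp, Cd14 and Fcer1g) summed to 65.2, 37.8 and 98.6 FPKM in control and 50.7, 73.2 and 82.1 FPKM in cKO libraries. Of these, 6 passed the filter and 0 of the 6 had an unadjusted p under 0.05, against 13.1% of all rows. Ptprc, which defines blood cells, was at 0.07 to 0.18 FPKM. The sum of the 3 immunoproteasome genes was 72.2, 58.6 and 80.3 FPKM in control and 71.6, 87.0 and 80.9 FPKM in cKO libraries. Control library 2 was the lowest for both sums, and cKO library 1 was the next lowest. The part of blood cells in the immunoproteasome values was not tested.

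**Figure D5:**
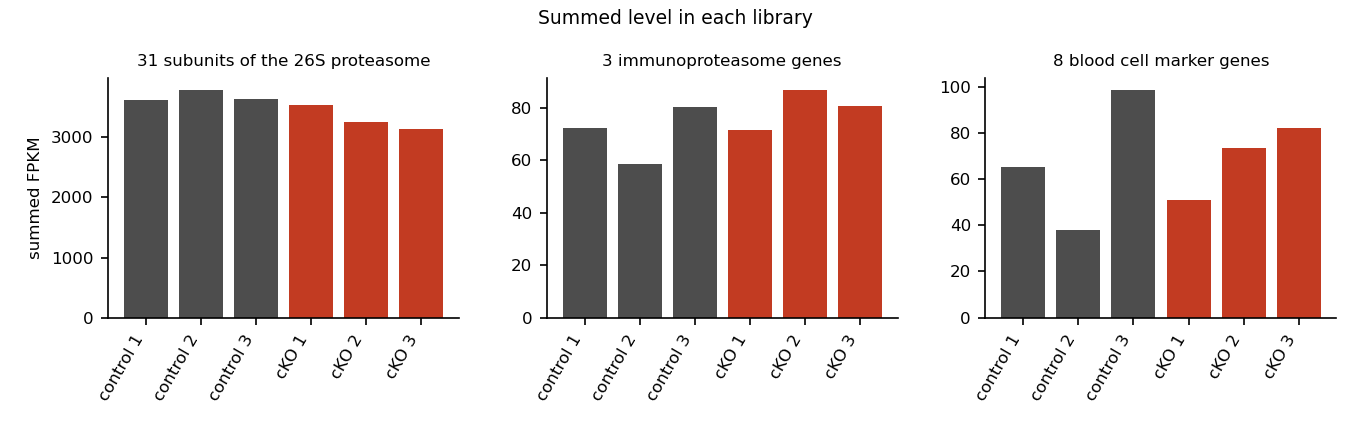
Summed FPKM in each library of the 31 tested 26S subunits, the 3 immunoproteasome genes and the 8 blood cell markers, with grey bars for control and red bars for cKO libraries, on linear axes from 0. The 26S sum is lowest in cKO library 3 (3143 FPKM) and highest in control library 2 (3795 FPKM), where the immunoproteasome sum (58.6 FPKM) and the blood marker sum (37.8 FPKM) are lowest. The immunoproteasome sum is highest in cKO library 2 (87.0 FPKM) and the blood marker sum in control library 3 (98.6 FPKM).

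Genes that are induced together with the immunoproteasome were read from a list of 13, of which 12 passed the filter. Of the 12, 7 had a higher and 5 a lower mean, with a median of 0.059. Irf1, an interferon-induced transcription factor, and Nlrc5, the activator of class I genes, had log2 fold changes of 0.022 (SE 0.068) and -0.10 (SE 0.084), both with overlapping groups. Tap1, the peptide transporter gene that lies beside Psmb9 and whose exons overlap it on the other strand, had 21.7, 19.4 and 19.5 FPKM in control and 19.6, 21.7 and 18.1 FPKM in cKO libraries. Tapbp (limma adjusted p = 0.413) and Erap1 (limma adjusted p = 0.508), which load and trim peptides, were higher in every cKO library than in every control library. This held for 2 of the 12, against 6.51% of all rows, and the reverse for 0, against 11.8% of all rows. Calr and Pdia3 were lower in mean with overlapping groups, at -0.24 (SE 0.14) and -0.080 (SE 0.077). Irf9, a further interferon factor, had a log2 fold change of 0.23 (SE 0.11), and the class I chains H2-K1 and B2m had 0.33 (SE 0.18) and 0.17 (SE 0.16), all higher in mean with overlapping groups. The class I gene H2-D1 went the other way and, of the 12, was the only gene with an unadjusted p under 0.05, a share near the 7.76% of all rows that were lower. It had 115, 97.0 and 27.9 FPKM in control and 22.8, 31.9 and 31 FPKM in cKO libraries, so that control libraries 1 and 2 stood apart from all others and control library 3 lay among the cKO libraries (log2 fold change -1.24, SE 0.50, limma adjusted p = 0.367). Without control library 3 its log2 fold change was -1.87 (limma adjusted p = 0.0864), and with any other library left out its unadjusted p was above 0.05.

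The activator genes were mixed. Psme1 and Psme2 encode the interferon-inducible PA28 ring that opens the core for peptides. Psme1 had 86.0, 83.8 and 90.5 FPKM in control and 93.0, 102.5 and 92.5 FPKM in cKO libraries, with every cKO value above every control value (log2 fold change 0.14, SE 0.069, limma adjusted p = 0.422). Its partner Psme2 overlapped, with 141, 137 and 150.0 FPKM in control and 152, 145 and 136 FPKM in cKO libraries. The nuclear activator Psme3 had 42.3, 45.7 and 41.5 FPKM in control and 39.4, 39.9 and 40.5 FPKM in cKO libraries, all lower. Psme4, the PA200 activator, had the largest negative difference of the class, 16.2, 16.4 and 14.6 against 15.7, 13.6 and 12.5 FPKM (log2 fold change -0.17, SE 0.095). The inhibitor Psmf1 overlapped too, with 10.9, 10.5 and 11.2 FPKM in control and 9.86, 10.7 and 11.5 FPKM in cKO libraries. Of these 5 genes, 0 had an unadjusted p under 0.05, against 13.1% of all rows, too few genes for a result.

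Assembly chaperones build the core and the base but are not part of the finished particle. Of 7, 4 had a higher and 3 a lower mean, with a median of 0.014. An unadjusted p under 0.05 was found for 0 of them, against 13.1% of all rows. With so few genes this count is no result about the class. Psmg4 had the largest positive difference of all proteasome genes, with 20.4, 14.2 and 18.9 FPKM in control and 17.6, 23.97 and 24 FPKM in cKO libraries. Its cKO library 1 lay within the control range (log2 fold change 0.28, SE 0.17, limma adjusted p = 0.494). Psmd5, a chaperone of the base, had 28.5, 30.4 and 27 FPKM in control and 26.4, 23.1 and 26.2 FPKM in cKO libraries, all lower (log2 fold change -0.18, SE 0.080). Psmg1, Psmg2, Psmg3, Psmd9 and Psmd10 overlapped between groups, with log2 fold changes from -0.10 to 0.10. Psmg1 was the most abundant, at 25.4, 29.9 and 30.8 FPKM in control and 28.4, 29.9 and 26.5 FPKM in cKO libraries. Psmd9 was the least, at 14.1, 12.4 and 12.9 FPKM in control and 13.3, 13.96 and 12.6 FPKM in cKO libraries.

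Proteasome factors outside the Psm names were read from a list of 30 symbols, of which 27 had a row and 26 passed the filter. Of the 26, 17 had a lower and 9 a higher mean, with a median of -0.082. At an unadjusted p under 0.05, 2 were lower and 0 higher, a share of the list near the 7.76% of all rows that were lower, which is no result about the list. Vcp, the ATPase that extracts ubiquitin-tagged proteins for the proteasome, had 215, 216 and 215 FPKM in control and 196, 166 and 174 FPKM in cKO libraries (log2 fold change -0.27, SE 0.076, limma adjusted p = 0.312). Its control values were nearly equal, and all cKO values were lower. Uchl5, a deubiquitinase of the regulatory particle, had 11.9, 12.1 and 11.1 FPKM in control and 11.2, 8.78 and 8.45 FPKM in cKO libraries, with cKO library 1 within the control range (log2 fold change -0.29, SE 0.11, limma adjusted p = 0.342). With 1 library left out, the adjusted p of Uchl5 in limma was as low as 0.0482. In 6 of the 26, every cKO library was below every control library, which held for 11.8% of all rows. In 0 was the reverse true, which held for 6.51% of all rows. Among the 6 were Vcp, the core assembly factor Pomp (163.5, 185 and 165 against 161, 147 and 139.8 FPKM) and the lid subunit Sem1 (499.6, 489 and 513 against 468, 480.3 and 432 FPKM). Nfe2l1, which encodes NRF1, had 69.5, 74.1 and 68.5 FPKM in control and 70.5, 81.0 and 90.6 FPKM in cKO libraries, with cKO library 1 within the control range (log2 fold change 0.18, SE 0.098, limma adjusted p = 0.464). Nfe2l2, which encodes NRF2, had 43.9, 49.31 and 45.51 FPKM in control and 48.48, 52.45 and 54.25 FPKM in cKO libraries. Its groups overlapped (log2 fold change 0.16, SE 0.074, limma adjusted p = 0.414).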

How the data were processed

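RNA from cultured calvarial preosteoblasts was sequenced as 150 bp paired-end reads in 3 control and 3 cKO libraries. Per the labels and the methods, the authors mapped reads with HISAT2 to mouse GRCm38 and normalized them with DESeq. The deposited table holds FPKM values as the authors computed them, rounded to 2 decimals, 1 row per gene symbol, and FPKM does not carry read counts. The annotation release, the program that computed FPKM and tool versions are not given in the sources used here. The median ratio of low values to control library 1 was 1 in every library, so rounding hides any step of single reads, depth is unknown and no counting interval was computed. FPKM sums of a library ran from 573307 to 606428.

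From these values, log2(FPKM + 1) was fitted with limma 3.58.1 in R 4.3.3 (lmFit, eBayes, Benjamini-Hochberg adjustment, two-sided) over 11590 rows, those in which 3 or more libraries reached 1 FPKM. Fold changes on this scale understate those of low genes. Ratios of 2 genes were compared with an exact permutation test. Coordinates of genes and exon overlaps are from GENCODE release M21. Sequence motifs were chosen after counts of several letter runs had been looked at. Full values are given for the immunoproteasome genes, for genes with an unadjusted p under 0.05, and for those highest, lowest or most different in a class. The members, the lists and these rules were chosen with earlier results of these data known. Some genes of the lists are not reported here and were left out of their counts and sums. Alternatives were another pseudocount, filters, a variance trend, rescaling, the replicate block, a Y-linked covariate and leaving out each library.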

Additional observations from a re-analysis of the deposited data

How the results depend on the processing

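No proteasome gene passed an adjusted p of 0.05 in limma with all 6 libraries under any alternative, and 0 to 1 did with 1 library left out. Genes lower at an unadjusted p under 0.05 numbered 12, 7 with the Y-linked covariate and 3 to 20 with 1 library left out. Genes higher numbered 0, then 2 (Psmb10 and Psme1) without a filter, with quantile normalization and with a common median, and 0 to 2 with 1 library left out. Among regulators the number was 2, then 6 without a filter, 4 with FPKM of at least 5, 4 with a variance trend, 1 with the covariate, and 1 to 8 with 1 library left out. Among antigen processing genes it was 1, then 0 with pseudocount 0.1, 2 with each rescaling, and 0 to 4 with 1 library left out. Shares of all rows at an unadjusted p under 0.05 were not taken in these alternatives, so the counts are not results about the lists. The median of the assembly chaperones was 0.014, and -0.020 to 0.033 with 1 library left out, below 0 only without cKO library 2. The cause was not tested. Log2 differences of the ratios kept their sign in 8 of 8 alternatives, from 0.24 to 0.74 for Psmb9, 0.26 to 0.44 for Psmb10 and 0.083 to 0.41 for Psmb8. With the replicate number as a block, 11 genes were lower and the pairing changed no call by more than 1.5 times. Deviations of same-numbered libraries correlated at 0.031, -0.17 and 0.21, so the numbers are not read as pairs. Depth is unknown from FPKM, which limits what can be said of low values.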
